A study of Mus musculus with 8 samples.

Results

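The 7 genes described here encode the enzymes and the transporter through which activated macrophages use arginine and make itaconate: Acod1, Nos2, Arg1, Arg2, Slc7a2, Ass1 and Odc1. They were found by the RefSeq transcript that the array design gives for each probe, among 20886 genes named on the array. All 7 had at least 1 probe, 10 probes in all, and each of the 10 was well above background on all 8 arrays. The RNA came from macrophages of mice given LPS (lipopolysaccharide, a bacterial endotoxin), so both groups carry the LPS stimulus. There were 4 arrays of wild-type mice (WT 1 to 4) and 4 of EP2-KO mice (EP2KO 1 to 4), which lack EP2, the prostaglandin E2 receptor encoded by Ptger2. The labels give every mouse as male. Strain, age, LPS dose and time, and the site from which the macrophages were taken are not given in the sources used here, nor is whether the knockout covers all cells or whether an array holds 1 mouse or a pool.

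Arginine stands at a fork in macrophage metabolism. Slc7a2, the cationic amino acid transporter CAT2, brings arginine into the cell. Nos2, the inducible nitric oxide synthase, turns it into nitric oxide and citrulline, and Ass1, argininosuccinate synthase, starts the return of citrulline to arginine. The arginases Arg1, in the cytosol, and Arg2, in mitochondria, instead split arginine into urea and ornithine, and Odc1, ornithine decarboxylase, takes ornithine into the polyamines. Acod1, formerly Irg1, draws on the citrate cycle: it decarboxylates cis-aconitate to itaconate, which inhibits succinate dehydrogenase. Nos2 and Acod1 are known as genes that LPS induces in macrophages, and Arg1 is a marker of alternative activation in mice.

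The arrays lay on 2 slides: slide 1 held WT 1, WT 2, EP2KO 1 and EP2KO 2, and slide 2 the other 4. Slide and scan time coincide. On each slide the WT arrays were at positions 1 and 2 and those of EP2KO at 3 and 4, so position on the slide and genotype cannot be told apart. Between 25566 and 32161 of 39429 gene probes were well above background per array, and precision is limited by how few arrays there are. The 8 macrophage markers with a probe, of 9 listed, were well above background on all arrays. For Ptger2, EP2KO minus WT was -1.76 ± 0.17 in log2 units (SE, limma adjusted p = 0.0616, 0.0328 with the slide and 0.217 with the replicate number as a block), with no overlap between the genotypes, which checks the labels only if its probe lies in the deleted part. On the sex label, both Xist probes exceeded background on 8 of 8 arrays, while the Y-linked genes Ddx3y, Eif2s3y and Kdm5d did so on 0 and Uty on 1, which goes against mice labelled male. Nothing in the labels says that replicates are separate mice, so the p-values measure the spread between these samples only.

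No gene of the 7 differed between genotypes past the threshold, an adjusted p under 0.05 from limma over all 20738 tested features. In that comparison 0.00964% of all features were called, 2 in number, and no gene of the 7 separated the genotypes without overlap, where 1.39% of features did (0.951% with EP2KO lower). Nos2 alone of the 7 had an unadjusted p under 0.05, a mark reached by 1.98% of features (1.47% with EP2KO lower). Signs were the same on both slides for 4 of the 7, against 36.3% of features, and all 4 were below 0, against 21.5%. By contrast, Acod1, Ass1 and Arg2 were lower on slide 2 than on slide 1 in both genotypes, by 27.1-fold, 9.30-fold and 4.32-fold, and passed the threshold for that difference. The other 4 genes did not pass it. Signals below are relative to each array's 75th percentile of gene spots, and a genotype difference is the log2 mean of EP2KO less that of WT, with the limma SE, n = 4 arrays per genotype unless stated. A level is compared only with the same probe on other arrays, because probes differ in their brightness per transcript. In bulk RNA, fewer cells that express a gene and less RNA per cell cannot be told apart, which holds for every value that follows.

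**Figure D1:**
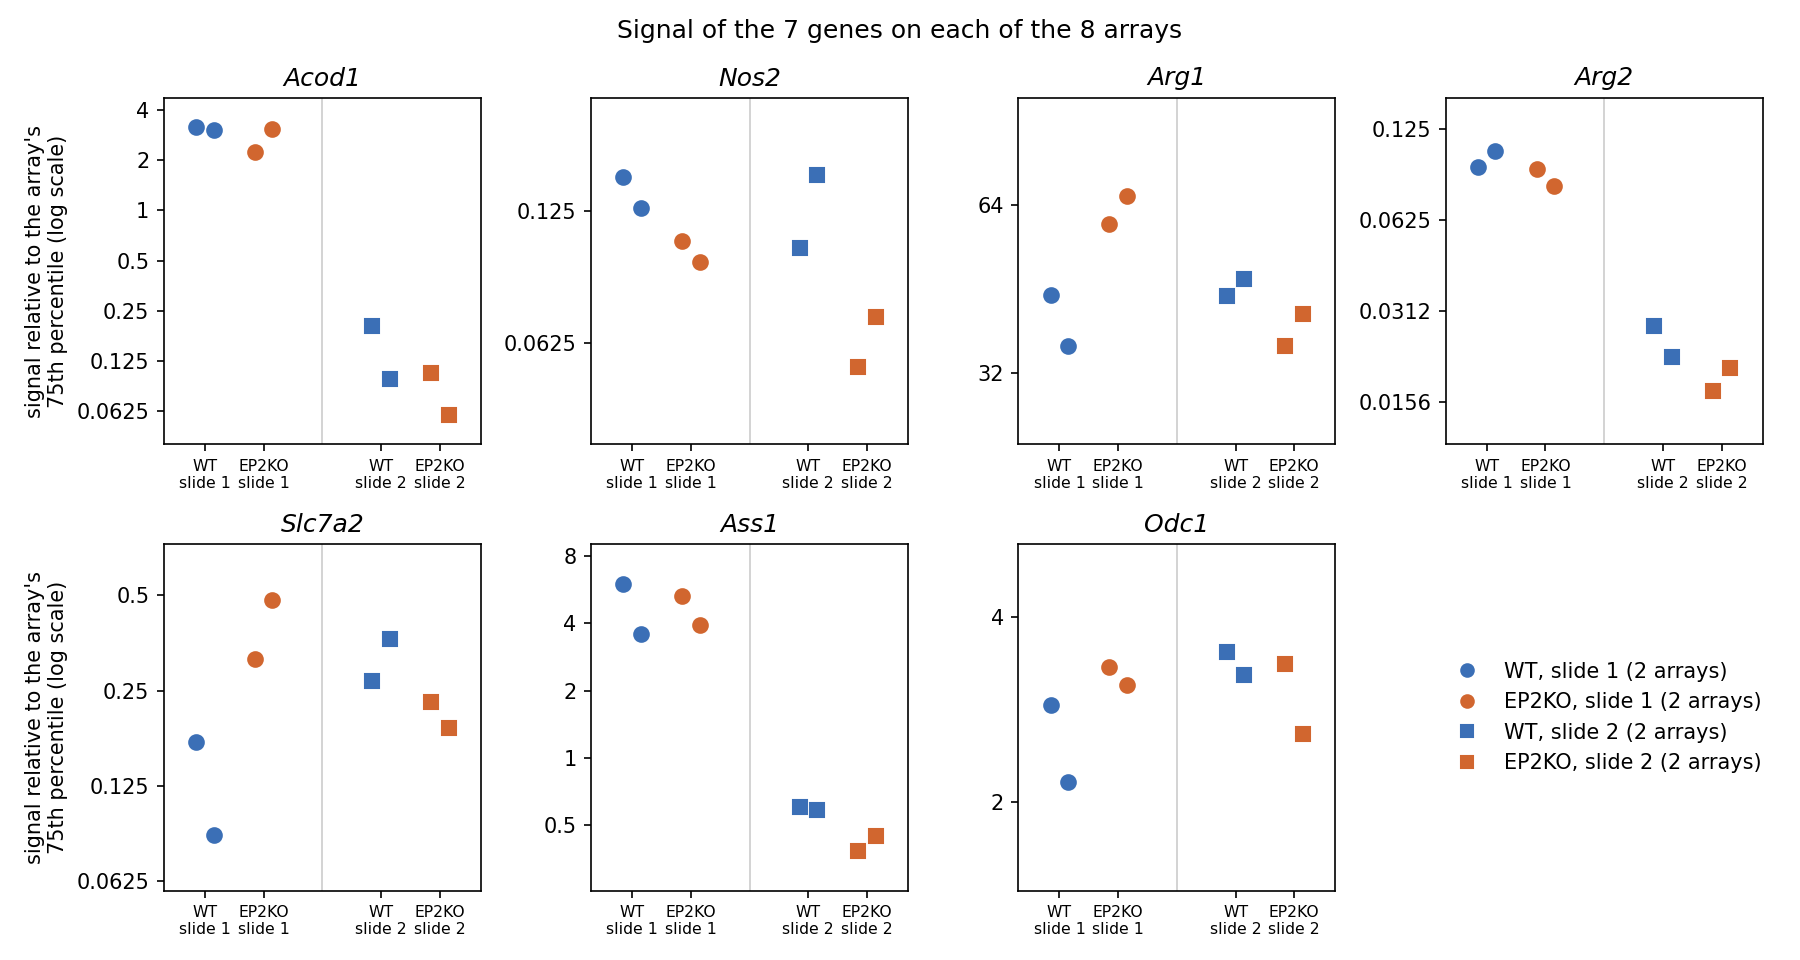
Relative signal of each gene's probe (log scale, vertical axis) on the 8 arrays, grouped by genotype and slide along the horizontal axis, 1 point per array. Acod1, Arg2 and Ass1 have all 4 slide 2 arrays below all 4 slide 1 arrays, while Nos2 has both EP2KO arrays below both WT arrays on either slide.

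Nos2 had relative signals of 0.149, 0.126, 0.103 and 0.151 on WT 1 to 4. On EP2KO 1 to 4 it had 0.107, 0.0956, 0.0549 and 0.0713. On each slide both EP2KO arrays lay below both WT arrays, but over all 8 the genotypes overlapped, since EP2KO 1 stood above WT 3. The summed signal of 7 T and NK cell markers, 6 of them well above background on every array, was ordered likewise within slides: 5.37 and 3.89 in WT against 1.89 and 1.73 in EP2KO on slide 1, and 1.28 and 1.18 against 0.878 and 0.866 on slide 2. This list was set beside Nos2 after the values were seen. Mast cell and resident peritoneal macrophage markers were ordered the opposite way within both slides. The part of any of these cells in the Nos2 values was not tested. The difference was -0.72 ± 0.24, a 1.64-fold lower mean on the log scale. By exact permutation (two-sided, 70 arrangements) p was 0.0571, and the limma adjusted p was above 0.99. Within slide 1 the difference was -0.44 ± 0.23 and within slide 2 it was -0.99 ± 0.23. With the slide as a block the SE was 0.19 and the limma adjusted p 0.361. In that fit 2 of the 7, Nos2 and Arg2, had an unadjusted p under 0.05, against 7.34% of features (4.85% with EP2KO lower). Being below WT within both slides was shared with 4.1% of all features, and of the 7 genes Arg2 also showed it. The Nos2 probe was dim, with a processed signal between 61.7 and 221 (arbitrary scanner units before scaling to the array). With normexp background correction the Nos2 genotype difference was -0.71 ± 0.34 (limma adjusted p = 0.972).

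Ass1, which feeds citrulline back into arginine, had relative signals of 6.04 and 3.57 on WT 1 and WT 2 and of 0.601 and 0.584 on WT 3 and WT 4. Its values were 5.29 and 3.92 on EP2KO 1 and EP2KO 2 and 0.381 and 0.446 on EP2KO 3 and EP2KO 4. The slides did not overlap. The slide 2 minus slide 1 difference, with genotype in the fit, was -3.22 ± 0.21 (limma adjusted p = 0.000103), and a second Ass1 probe gave -3.59. The genotype difference was -0.28 ± 1.17 without the slide in the fit and had an SE of 0.21 with the slide as a block. It was -0.03 on slide 1, where the genotypes overlapped, and -0.52 ± 0.28 on slide 2, where they did not. The second probe had 0.07 and -0.85.

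For Arg1 the 4 WT arrays read 44.2, 35.7, 43.8 and 47.1 in order of number, and the EP2KO arrays 59.1, 66.3, 35.8 and 40.8. EP2KO arrays were above WT on slide 1 and below WT on slide 2, without overlap on either. The differences were 0.66 ± 0.16 and -0.25 ± 0.16, which left 0.20 ± 0.23 over both slides (exact permutation p = 0.400, limma adjusted p above 0.99). Between slides Arg1 differed by -0.26 ± 0.20 (limma adjusted p = 0.336). The whole range over the 8 arrays was 1.86-fold, against 53.2-fold for Acod1.

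Arg2, the mitochondrial arginase, had 0.0933, 0.105, 0.0278 and 0.0219 on WT 1 to 4. On EP2KO 1 to 4 it had 0.0920, 0.0808, 0.0170 and 0.0203. As with Ass1, all slide 2 arrays lay below all slide 1 arrays. The slide difference was -2.11 ± 0.13 (limma adjusted p = 8.54e-05). This probe was dim, with a processed signal between 19.1 and 113 (arbitrary scanner units before scaling to the array). With normexp background correction the slide difference was -0.56 and its limma adjusted p 0.435, so the call was lost. The genotype difference was -0.31 ± 0.77, and -0.31 ± 0.13 with the slide as a block (limma adjusted p = 0.675). Both EP2KO arrays lay below both WT arrays on slide 1 (-0.20 ± 0.18) and on slide 2 (-0.41 ± 0.18).

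Odc1 was the steadiest of the 7 across the arrays, with a 1.63-fold range. The WT arrays read 2.88, 2.15, 3.50 and 3.22 in order of number. The EP2KO arrays read 3.32, 3.10, 3.35 and 2.58. The genotype difference was 0.09 ± 0.19, with 0.37 on slide 1 and -0.19 on slide 2, and the slide difference was 0.15 ± 0.17 (limma adjusted p = 0.505). Its other 2 probes had genotype differences of 0.15 and 0.06.

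Because Nos2 and the arginases compete for arginine, the log2 ratio of Nos2 to Arg1 was taken within each array, which does not depend on how arrays are scaled against each other. For WT the log2 ratios were -8.21, -8.14, -8.73 and -8.29 in order of number. For EP2KO they were -9.11, -9.44, -9.35 and -9.16. All EP2KO arrays lay below all WT arrays. The means were -8.34 ± 0.27 and -9.26 ± 0.15 (SD, n = 4), a difference of -0.92 or a 1.89-fold lower ratio in EP2KO. It was -1.10 on slide 1 and -0.74 on slide 2. The exact two-sided permutation p was 0.0286, the smallest that 70 arrangements can give. It was 0.0556 when arrays were exchanged only within slides and 0.125 when only within replicate numbers, the smallest those designs allow, and 0.0571 with normexp background correction, so the call did not hold in these. It was also 0.0571 without EP2KO 2 (-0.86) or without EP2KO 3 (-0.89). All 21 pairs of the 7 were then looked at, after the data had been seen, and 2 separated the genotypes. The other was Nos2 relative to Slc7a2 (-1.26, exact permutation p = 0.0286, not adjusted for this search), which rests on the same Nos2 values. Thus 2 of the 6 ratios of Nos2 to another of the 7 were lower in EP2KO without overlap. Among ratios of Nos2 to each other feature 13.7% were, a count made after the first ratio had been seen. The ratio shows unequal change of the pair, not which gene changed: on slide 1 Nos2 was lower and Arg1 higher in EP2KO, while on slide 2 both were lower and Nos2 by more.

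**Figure D2:**
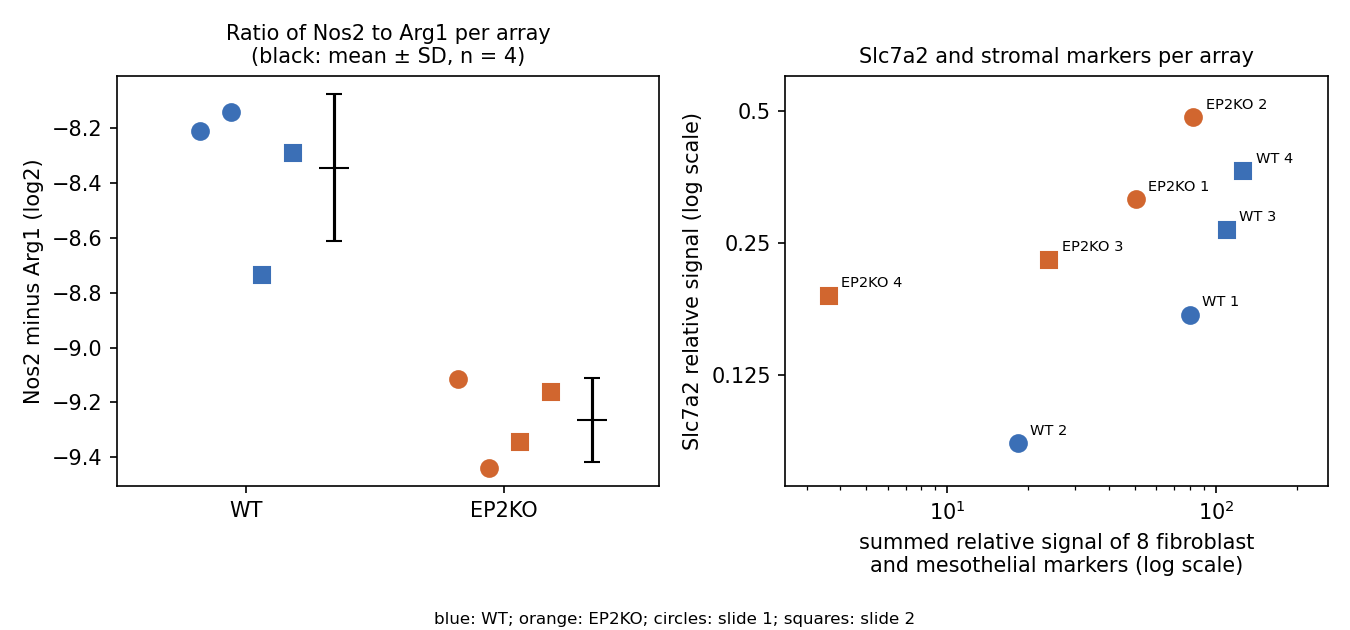
Left, the log2 ratio of Nos2 to Arg1 on each array by genotype, with mean ± SD in black. The EP2KO values run from -9.44 to -9.11 and the WT values from -8.73 to -8.14. Right, the relative signal of Slc7a2 against the summed relative signal of 8 fibroblast and mesothelial markers on each array (both log scales). WT 2 has the lowest Slc7a2 signal and EP2KO 2 the highest.

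Slc7a2 ran in opposite directions on the slides. Its relative signal was 0.172 and 0.0876 on WT 1 and WT 2 against 0.315 and 0.483 on EP2KO 1 and EP2KO 2. It was 0.268 and 0.364 on WT 3 and WT 4 against 0.229 and 0.190 on EP2KO 3 and EP2KO 4. The genotype difference was 1.67 ± 0.37 on slide 1, a 3.18-fold higher EP2KO mean, and -0.58 ± 0.37 on slide 2, without overlap on either slide. Over both slides the difference was 0.54 ± 0.48 (limma adjusted p above 0.99).

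A term for the difference between slides in the genotype effect was tested with limma. For Slc7a2 it was -2.25 ± 0.53 (unadjusted p = 0.00478, adjusted p = 0.125), and for Arg1 it was -0.91 ± 0.23 (unadjusted p = 0.00634, adjusted p = 0.131). Neither passed, nor did any of the 7, against 0.0145% of all features called and 21.1% with an unadjusted p under 0.05. Without WT 1 the Slc7a2 term was -2.74 (limma adjusted p = 0.0378), a fit in which 1280 features were called, against 3 with all arrays. The turn from higher on slide 1 to lower on slide 2, without overlap on either, was seen in Slc7a2 and Arg1 and in 5.33% of all features. On slide 2 alone all 7 genes were lower in EP2KO, where 43.3% of all features were lower, and 5 of them without overlap, against 21.4%. On slide 1 it was 4 of 7, against 63.4%, and 2 of them without overlap, against 33.9%. These signs and shares hold for the scaling used here and can change with it. With median scaling the Arg1 difference was 0.35 over both slides and its slide term -0.60. Together these place the EP2KO mean of Arg1 above that of WT on slide 2. The same holds for Odc1 (0.23 and -0.25), and for Arg2 with quantile normalization (-0.10 and 0.25). In a fit of the 4 groups of genotype and slide, 0 of the 7 passed within slide 1 (0.0193% of features called in either direction). Within slide 2 it was again 0, with 0.825% of features called lower, and Nos2 had the smallest adjusted p of the 7 there, 0.114.

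**Figure D3:**
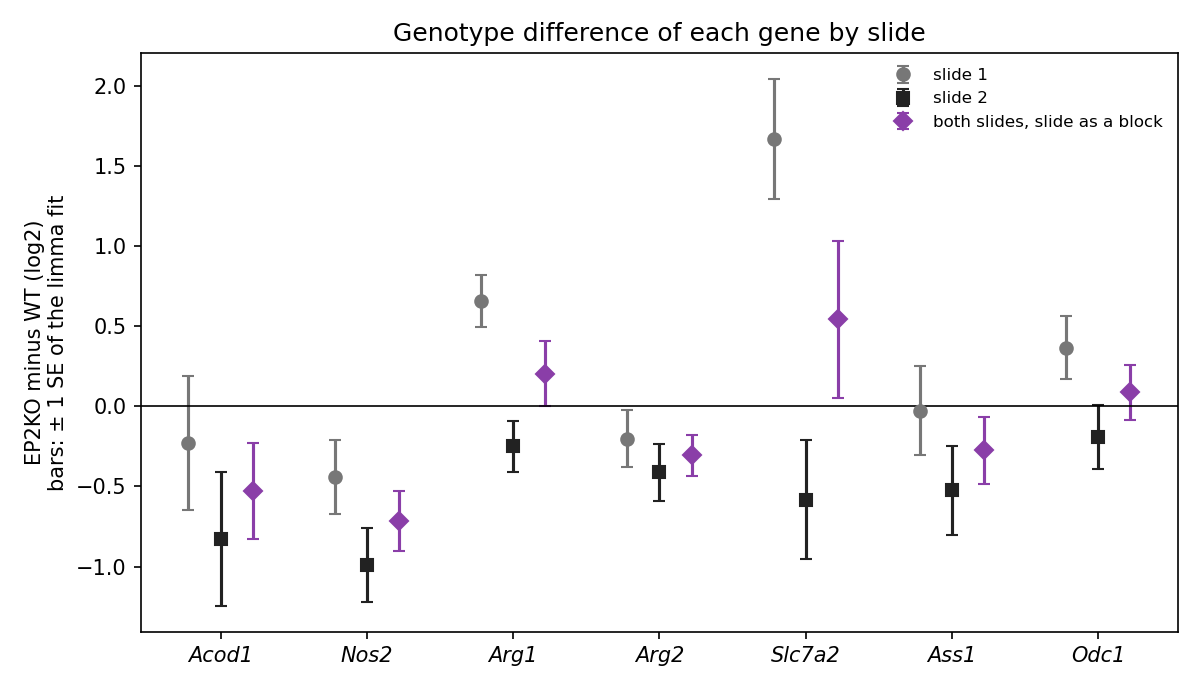
Genotype difference of each gene (EP2KO minus WT, log2, vertical axis) within slide 1, within slide 2 and over both with the slide as a block; bars are ± 1 SE of the limma fit. Nos2 lies below 0 in all 3 estimates, and Slc7a2 is at 1.67 on slide 1 and -0.58 on slide 2.

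Markers of stromal cells moved with Slc7a2 in part. The summed relative signal of the 8 fibroblast and mesothelial markers, all 8 well above background on every array, came to 79.8, 18.3, 110 and 126 in the WT arrays by number. It was 50.3, 82.4, 23.9 and 3.62 on EP2KO 1 to 4. WT 2 was the lower WT array of slide 1 for both, and EP2KO 3 and EP2KO 4 were below WT 3 and WT 4 for both. However, EP2KO 4 had the lowest stromal sum of the 8 arrays and a higher Slc7a2 signal than WT 1 or WT 2. On slide 1, EP2KO 1 had a lower stromal sum than WT 1 (50.3 against 79.8) but a higher Slc7a2 signal (0.315 against 0.172). The part of these cells in the Slc7a2 values was not tested.

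Acod1 had the widest spread of the 7. Its relative signal was 3.15 and 3.02 on WT 1 and WT 2 and 2.24 and 3.10 on EP2KO 1 and EP2KO 2. On slide 2 it was 0.202 and 0.0971 on WT 3 and WT 4 and 0.105 and 0.0593 on EP2KO 3 and EP2KO 4. All 4 slide 2 arrays were far below all 4 of slide 1. The probe was dim on slide 2, with processed signals of 305 and 143 on WT 3 and WT 4. On EP2KO 3 and EP2KO 4 they were 118 and 82.4 (arbitrary scanner units before scaling to the array). The slide difference was -4.76 ± 0.30 (limma adjusted p = 9.44e-05), and with normexp background correction it was -3.88. The genotypes overlapped on both slides. Their difference was -0.53 ± 1.73 without and ± 0.30 with the slide as a block (limma adjusted p = 0.851), made of -0.23 ± 0.42 on slide 1 and -0.83 ± 0.42 on slide 2. With the slide as a block 0 of the 7 genes passed (0.0193% of features called), and with the replicate number as a block it was also 0 (0% of features called), while 2 had an unadjusted p under 0.05, against 5.45% of features.

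Of the 7 genes, 3 were called lower on slide 2 and 0 higher, where 18.2% of all features were called lower and 25.1% higher, 43.2% together. Marker sums of other cells differed between slides as well, in both directions. Those of endothelial cells, 5 listed and 2 of them well above background on every array, were higher on slide 2. They ran from 2.21 to 2.36 on slide 1 and from 2.64 to 3.34 on slide 2. Fibroblast and mesothelial sums overlapped, with 18.3 to 82.4 on slide 1 and 3.62 to 126 on slide 2. The 5 B cell markers, all well above background on every array, summed to between 55.9 and 92.8 on slide 1 and between 4.41 and 11.5 on slide 2. Monocyte markers, 5 with a probe, summed to between 81.0 and 119 on slide 1 and between 30.6 and 83.5 on slide 2, and neutrophil markers to between 62.4 and 124 and between 50.6 and 57.6. T and NK cell markers lay between 1.73 and 5.37 on slide 1 and between 0.866 and 1.28 on slide 2. Markers of resident peritoneal macrophages lay between 125 and 189 and between 75.5 and 128, and 5 mast cell markers, which overlapped between slides, reached 24.2 on slide 1 and as little as 0.890 on slide 2. The monocyte and resident peritoneal macrophage sums overlapped between slides too. So did those of the general macrophage markers, with 260 to 336 on slide 1 and 202 to 323 on slide 2. The part of all these cells in the Acod1, Ass1 and Arg2 values was not tested. Slide, scan time and any difference between the animals of the slides cannot be told apart.

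Promoter windows of 300 bases, from 250 before to 50 after the annotated start, were at hand in RefSeq on build GRCm38.p6 for 3 of the 7 genes. They are shown because no window was at hand for the others of the 7. Any link between their motifs and the slide difference was not tested. Capitals mark matches, on either strand, to 5 motifs: the kappaB decamer of NF-kB, the interferon regulatory factor element, the TATA box TATAAA, the cAMP element core TGACG and the hypoxia element core ACGTG. Matches of TGACG and ACGTG can share bases.
Acod1, chr14:103046762-103047061, plus strand: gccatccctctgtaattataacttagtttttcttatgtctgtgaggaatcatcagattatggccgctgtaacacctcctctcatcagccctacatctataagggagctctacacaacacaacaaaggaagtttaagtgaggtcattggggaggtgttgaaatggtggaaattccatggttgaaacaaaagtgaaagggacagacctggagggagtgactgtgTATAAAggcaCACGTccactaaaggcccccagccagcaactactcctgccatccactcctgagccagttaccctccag
Ass1, chr2:31470020-31470319, plus strand: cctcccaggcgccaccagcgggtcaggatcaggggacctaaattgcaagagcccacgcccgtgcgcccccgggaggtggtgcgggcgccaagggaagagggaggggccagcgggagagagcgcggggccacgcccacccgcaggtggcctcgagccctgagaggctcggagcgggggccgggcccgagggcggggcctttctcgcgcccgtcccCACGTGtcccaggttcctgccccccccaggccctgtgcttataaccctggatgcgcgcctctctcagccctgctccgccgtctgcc
Odc1, chr12:17544623-17544922, plus strand: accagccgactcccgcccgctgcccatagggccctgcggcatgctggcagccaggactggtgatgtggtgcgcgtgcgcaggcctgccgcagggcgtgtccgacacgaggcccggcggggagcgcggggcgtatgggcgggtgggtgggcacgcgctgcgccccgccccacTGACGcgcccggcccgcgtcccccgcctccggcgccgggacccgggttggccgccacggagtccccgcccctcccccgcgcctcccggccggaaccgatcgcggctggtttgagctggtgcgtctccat
The Acod1 window held a TATA box, which starts at position -28 from the annotated start, and 1 hypoxia core. Ass1 held a palindrome that counts as a hypoxia core on both strands, and Odc1 held 1 cAMP core. The patterns searched for the kappaB decamer and the interferon element matched in none of the 3 windows. Sites of another length or spelling were not searched and are not in capitals. The lack of a decamer match therefore does not show that the Acod1 window, or any of the 3, lacks an NF-kB site. Of 32851 RefSeq promoter windows of this length, 13.6% held the TATA box, 19.6% the hypoxia core, 20.8% the cAMP core, 11.2% the kappaB decamer and 3.44% the interferon element. A match is a string of letters, not a bound site.

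Of 108 other listed genes of these pathways 99 were tested, and over both slides 0 were called for genotype (limma, against 0.00964% of all features). An unadjusted p under 0.05 was found for 1, Slc3a1, or 1.01% against 1.98% of all features. With the slide as a block it was found for 2, or 2.02% against 7.34%. Within slide 1 again 0 were called. Within slide 2 it was 1, Pcbd1, or 1.01% against 0.825% of all features called lower and 0.116% higher. All 9 genes listed under arginine transport were tested, with a median genotype difference of -0.06, against -0.03 over all features. Among them Slc7a6, a subunit of the arginine and leucine exchanger, was at -0.22 ± 0.20 and Slc25a29, a mitochondrial carrier of basic amino acids, at -0.41 ± 0.28. Urea cycle and citrulline genes had 4 of 7 tested and a median of -0.21. Gatm and Gamt, which make creatine from arginine, were at -0.62 ± 0.43 (0.24 on slide 1, -1.49 on slide 2) and -0.29 ± 0.18.

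Nitric oxide synthases and their modulators had 9 of 11 tested and a median of -0.07, with the endothelial synthase Nos3 at -0.20 ± 0.24 and the synthase-binding Nosip at -0.19 ± 0.16. Genes for tetrahydrobiopterin, the cofactor of nitric oxide synthases, had 7 of 7 tested and a median of 0.01. Gch1, the first enzyme of that pathway, was at 0.31 ± 0.19, with relative signals from 8.22 to 10.5 in EP2KO and from 5.41 to 9.52 in WT, which overlap. Pcbd1, which regenerates the cofactor, was at -1.11 ± 0.79 over both slides (limma adjusted p above 0.99). Its signals on slide 2 were 0.349 and 0.309 in WT and 0.0426 and 0.0320 in EP2KO, and on slide 1 they were 0.157 and 0.0586 in WT and 0.154 and 0.214 in EP2KO. Within slide 2 it was lower in EP2KO (-3.15 ± 0.45, limma adjusted p = 0.0455), and within slide 1 its difference was 0.92 ± 0.45 (adjusted p = 0.434). The genotype by slide term did not pass (limma adjusted p = 0.103). The stromal marker sums given with Slc7a2 were also lower in EP2KO on slide 2, and their part in the Pcbd1 values was not tested.

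Polyamine genes had 16 of 18 tested and a median of -0.04. Slc3a1, a subunit of a cystine and basic amino acid transporter, exceeded background clearly on 4 arrays of WT and 0 of EP2KO. It was tested only because its WT arrays passed the filter, so its higher WT signal was partly a condition of testing. It was at least 2.58-fold lower in EP2KO (limma adjusted p above 0.99; the EP2KO mean takes, per array, the higher of its own signal and the lowest signal well above background). Without WT 1 the bound was 1.61-fold. Its signal was 0.0777 on WT 1 against 0.0126, 0.00847 and 0.0153 on WT 2 to 4. The 9 intestinal epithelial markers, 4 of them well above background on every array, summed to 22.8 on WT 1, to 2.52, 0.539 and 3.00 on WT 2 to 4, and to between 0.500 and 0.998 on EP2KO. Their part in the Slc3a1 value was not tested. Azin2, an antizyme inhibitor, was at -0.49 ± 0.64 over both slides. It was at 0.91 ± 0.32 on slide 1 and -1.89 ± 0.32 on slide 2, without overlap on either. Neither difference passed (limma adjusted p = 0.322 and 0.0617), nor did its genotype by slide term (limma adjusted p = 0.105).

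Genes from ornithine to proline and glutamate had 7 of 9 tested and a median of 0.01. The proline oxidase Prodh was at 0.43 ± 0.23 (0.88 on slide 1, -0.03 on slide 2). The collagen prolyl hydroxylase subunit P4ha2 was at 0.61 ± 0.55 (1.33 on slide 1, -0.11 on slide 2). Genes around itaconate, from citrate synthase and aconitase to succinate dehydrogenase, had 20 of 20 tested. Their differences ran only from -0.12 to 0.20, with Aco1 at 0.12 ± 0.19 and Sucla2, a succinyl-CoA ligase subunit, at -0.08 ± 0.11. The transcription factors and receptors known to act on the 7 genes had 27 of 27 tested and a median of -0.09, with Irf7 at 0.41 ± 0.28 and Stat3 at -0.30 ± 0.23.

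Between slides these lists did hold called genes. Among the transcription factors and receptors 10 of 27 were lower and 4 higher on slide 2, where 18.2% of all features were lower and 25.1% higher. Lower were Nfkbia, the NF-kB inhibitor and target (3.84-fold, log2 -1.94 ± 0.15, limma adjusted p = 0.000169), and Cebpb, a factor that binds the Arg1 gene (2.27-fold, log2 -1.18, adjusted p = 0.00103), as well as Cd14, the LPS co-receptor (2.35-fold, log2 -1.24, adjusted p = 0.00116). Higher was Nr1h3, the oxysterol receptor LXR alpha (5.02-fold, log2 2.33, adjusted p = 0.000624). Also higher was Tlr4, the LPS receptor (1.58-fold, log2 0.66, adjusted p = 0.0142). Myd88 (log2 -0.32, adjusted p = 0.195) and Rela (log2 -0.12, adjusted p = 0.564) were not called. All genes named here from this list were chosen after their values were seen. Among polyamine genes 7 of 16 were higher and 1 lower on slide 2, and among the itaconate neighbours 3 of 20 were higher and 4 lower, the most for Acly, ATP citrate lyase, at 2.60-fold lower. The succinate dehydrogenase subunits Sdha, Sdhb, Sdhc and Sdhd were not among them.

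**Figure D4:**
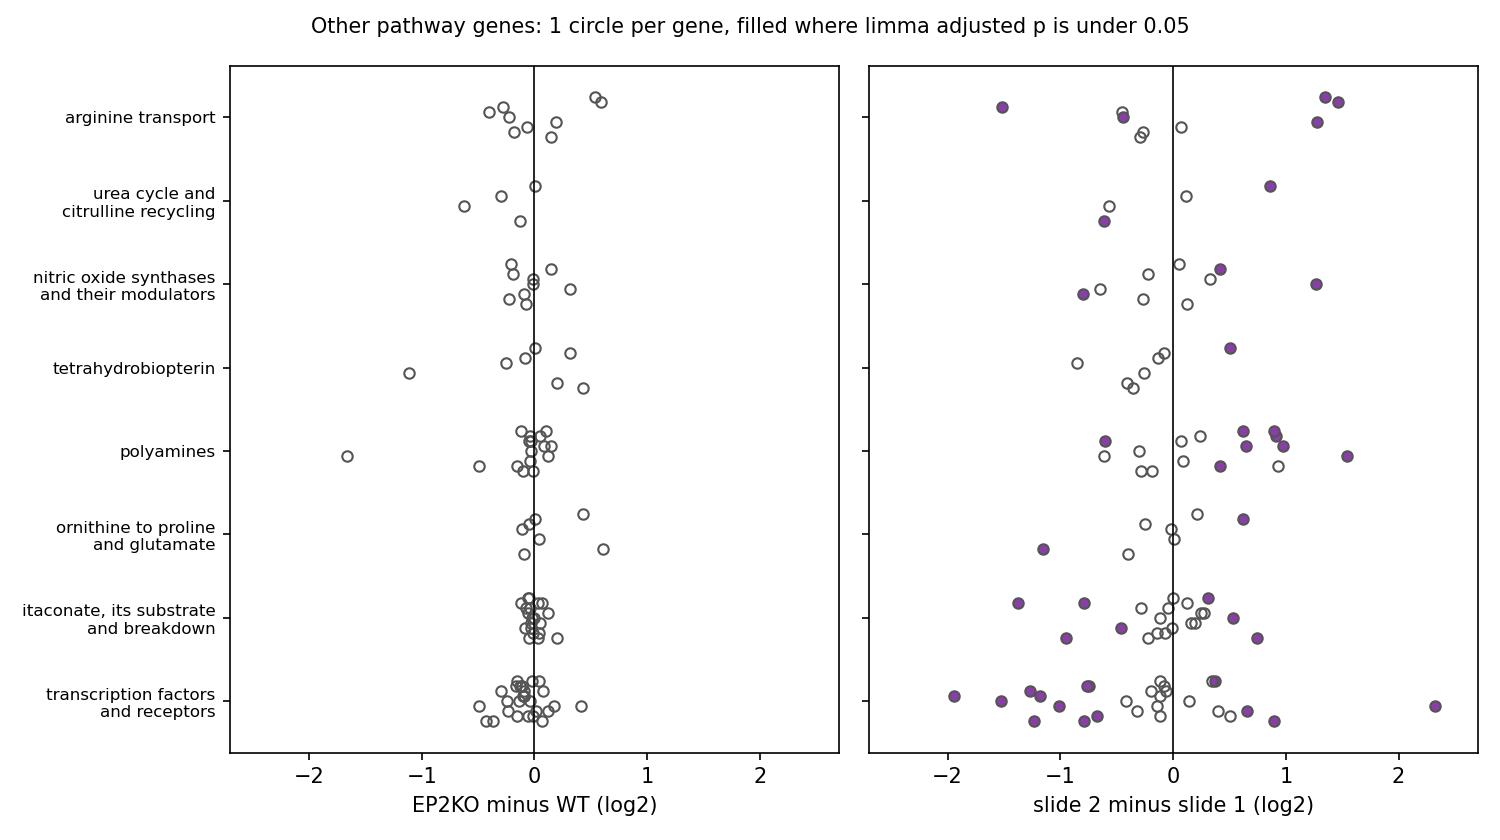
Log2 differences of the 99 other pathway genes, 1 circle per gene, by list (vertical axis): EP2KO minus WT on the left and slide 2 minus slide 1 on the right, filled where the limma adjusted p is under 0.05. No circle is filled on the left, where the one farthest out is Slc3a1, drawn at its measured value although it was not well above background in EP2KO. On the right Nr1h3 is highest at 2.33.

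For each of the 7, the 3 named genes with the most similar profile over the 8 arrays were taken, by the root mean square (RMS) difference of log2 profiles centred on their means. The profile of Acod1 was most like those of Gpr84, a receptor for medium-chain fatty acids that LPS induces (RMS difference 0.29 log2 units, where Acod1 itself varied by 2.43), of the non-coding 4933438K21Rik (0.37) and of the cytokine gene Il6 (0.39). These were 27.1-fold, 32.5-fold and 34.6-fold lower on slide 2. Ass1 was closest to S1pr4, a sphingosine 1-phosphate receptor (0.17), AF067061 (0.18) and Il4i1, a secreted amino acid oxidase (0.20). Arg2 was closest to Lpcat2 (0.13), H2-Q5 (0.14) and Mapk11 (0.15), all between 4.61-fold and 4.71-fold lower on slide 2.

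Nos2 was most like Hs3st1, a heparan sulfate sulfotransferase (0.16), Svep1 (0.22) and Lingo4 (0.22), in a profile that varied by 0.47. Slc7a2 was most like Unc13b (0.26), Fut10 (0.27) and Cald1, the actin-binding caldesmon (0.30), in a profile that varied by 0.71. For Arg1 the closest were Dnaja4 (0.09), Abhd14a (0.11) and Haus1 (0.12), and for Odc1 they were Thop1 (0.06), Vcan (0.08) and Gm3448 (0.09). Where a profile hardly varies, as with Odc1 (0.22), a small RMS difference says little. All candidates came from the same 8 arrays and share their slide difference.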

How the data were processed

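Total RNA of 8 samples had been hybridised to 1-colour Cy3 Agilent arrays. Per the file headers, the deposited scanner files hold linear intensity values, extracted with Feature Extraction 10.7.1.1 and background-corrected but not scaled between arrays; version 9.1 stands in the submitters' processing notes. The deposited series table holds the same intensity values (largest log2 difference 0).

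From these, log2 of the processed signal minus each array's 75th percentile was computed. Control spots (1377 of 44397) were left out, outlier spots set missing and spots of 1 probe averaged. RefSeq transcripts (gene table GRCm38.p6; the array design is on mm9, so the table served for names) named 27508 of 39429 probes. Probes stayed in if every array of 1 or both genotypes read them well above background, and the brightest stood for its gene: 14493 genes and 6245 unnamed probes. limma 3.58.1 in R 4.3.3 (lmFit, eBayes) with Benjamini-Hochberg adjustment over all 20738 features was tested on simulated data.

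The 7 genes and the lists were chosen with earlier results of these data known. Genes named besides the 7 were, per list, any past the threshold and otherwise the 2 with the smallest unadjusted p, and the 3 nearest profiles per gene; others are marked where named. Alternatives were other background correction, scaling and dim-probe filters, the mean over probes, slide or replicate blocks, array weights, another variance model and leaving out each array; normexp (offset 50) used median spot signals. Fits within each slide, the ratios of all pairs of the 7, the count of Nos2 ratios and the Slc3a1 bound without single arrays were added after the data were seen. Same-numbered WT and EP2KO arrays shared deviations from their genotype means (Pearson r over genes, which are not replicates, 0.736, 0.121, 0.553 and 0.428), but each such pair shares a slide.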

Additional observations from a re-analysis of the deposited data

Results flagged for a closer look

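Among the genes named above, 2 had an array that stood apart within its genotype, judged by its distance from the next array as a share of the spread of all 4. Nos3 was high on EP2KO 2 (ratio 0.972), with a relative signal of 0.161 against 0.119 on EP2KO 3, the lowest. Gamt was high on WT 3 (ratio 0.830), at 3.37 against 2.17 to 2.33. Of 50 groups of 4 tested these are 2, where chance gives about 2.5. None of the 7 genes had such a value in either genotype.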

How the results depend on the processing

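None of the 7 genes passed for genotype in any of 22 alternatives, and of the other pathway genes 1 passed, within slide 2, and 0 in the other 14 fits run for them. The count of all features called was 2; it was 4 with the slide as a block or as a random block, 0 with the replicate block, 4 and 195 within slide 1 and slide 2, and from 0 to 4 with 1 array left out. Besides these counts the replicate block changed only the call of the ratio below. Nos2 was lower in EP2KO in all 22 alternatives (-0.99 to -0.44). Ass1 was at 0.0077 with array weights. With 1 array left out the slides are unequally represented, and the genotype difference turned sign for Acod1 (-1.45 to 0.45), Ass1 (-0.92 to 0.35), Arg2 (-0.71 to 0.11) and Odc1 (-0.0539 to 0.18). It also did so within slide 2 for Arg1 (-0.25), Slc7a2 (-0.58) and Odc1 (-0.19). Median scaling moved the median of all features from -0.03 to 0.12, and normexp to -0.12.

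The ratio of Nos2 to Arg1 stayed lower in EP2KO throughout (-1.05 to -0.85), but the exact permutation p was 0.0556 within slides and 0.125 with the replicate block (both -0.92; these designs allow no smaller p), 0.0571 with normexp (-0.996), and 0.0571 without EP2KO 2 (-0.86) or without EP2KO 3 (-0.89). With 1 array left out it ran from -1.05 to -0.85.

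For slide 2 minus slide 1, 8967 features were called, 3533 with normexp and 6604 to 9734 with 1 array left out. Acod1 and Ass1 passed under every alternative and Arg2 under all but normexp (-0.56). Nos2 was at 0.12 with normexp and passed without WT 4 (-0.58, adjusted p = 0.0273), Odc1 was at -0.0214 with the mean over probes, and Slc7a2 at -0.20 without WT 2 and -0.09 without WT 4 (-0.20 to 0.57 with 1 array left out). The genotype by slide term was called for 3 features, 0 with normexp, 5 with median scaling, 1 without a filter, 14 with the strictest filter, 11 with trend and robust settings, and 0 to 1280 with 1 array left out; for Arg2 it was 0.10 with median scaling and 0.25 with quantile normalization. The causes were not tested.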
